A study of Homo sapiens with 12 samples.

Results

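HEK293T cells, a human embryonic kidney line, rescued with a DICER form labelled AA carried less of the miRNAs miR-484, miR-99b-5p, miR-331-3p and let-7e-5p than cells rescued with wild-type (WT) DICER, by 73.1-, 19.5-, 11.8- and 11.7-fold. A smaller set was higher, led among the more abundant names by both 3p arms miR-30a-3p and miR-30e-3p, near copies that may share reads. The comparison rests on the 4 small RNA libraries of HEK293T with WT or AA DICER, of 12 libraries in the series, and on every row named as a human miRNA. That gave 1611 names for HEK293T of 1971 in the whole series, and 626 of the 1611 had enough reads to be tested.

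DICER is the nuclease that cuts the loop from a hairpin precursor and leaves a duplex of a 5p and a 3p strand. One strand of each duplex is then loaded into an Argonaute protein, where its seed, bases 2 to 8, pairs with target mRNAs. DICER measures from the ends of the hairpin, and its double-stranded RNA-binding domain (dsRBD) sits on the stem close to the cut. The question named in the series title is which sequences of double-stranded RNA determine its processing by DICER.

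Both groups were HEK293T cells rescued with DICER, 2 libraries with the WT form and 2 with the AA form, and the other 2 HEK293T libraries had a form lacking the dsRBD. The labels do not say which residues the AA form changes, which cells were rescued, or how much of each form the cells made, so an effect of the changed residues and of the amount of DICER cannot be told apart. They also do not say whether the 2 libraries of a group are separate cultures, so the spread behind each p-value is that between these libraries and may be technical. Libraries were made by AQ-seq, a small RNA protocol designed to reduce ligation bias, from 100 µg of total RNA. The WT libraries held 2791656 and 3552613 miRNA reads and the AA libraries 2897843 and 1440770. Levels are given as CPM, miRNA counts scaled to 1e+06 reads after TMM scaling, where 3 reads correspond to 0.877 to 2.15 CPM. All 8 miRNAs listed as abundant in HEK293T were tested, with summed levels of 342936 to 349560 CPM with WT and 414403 to 435844 CPM with AA. Among markers of other cells, the list for HCT116, the colon line of the series, had 9 of 9 tested. It summed to 26810 and 28952 CPM with WT and 22336 and 21133 CPM with AA. Of the 9, 2 were called higher and 2 lower, against 6.23% and 15.2% of all names. The blood list (1 of 4 tested) summed to 17.2 and 17.7 CPM with WT and 12.2 and 13.7 CPM with AA. The muscle and liver lists had 0 tested names. The neuron list of miR-9-5p and miR-124-3p summed to 3478 and 4317 CPM with WT and to 5850.4 and 5862 CPM with AA, with 1 of the 2 called higher, and its part in the results was not tested.

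The mature sequences of the 10 largest falls and 10 largest rises of at least 100 CPM are shown so that their seeds can be compared, with miR-151a-5p among the falls and miR-10b-5p and miR-31-3p among the rises given by name only. In each line the capitals mark the seed, bases 2 to 8, and the sequences come from RefSeq (GRCh38.p14), which matched 546 of the 626 names. The falls were:
miR-484: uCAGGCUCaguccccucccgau
miR-99b-5p: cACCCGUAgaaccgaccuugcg
miR-331-3p: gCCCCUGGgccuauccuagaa
let-7e-5p: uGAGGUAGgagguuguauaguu
miR-615-3p: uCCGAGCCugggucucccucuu
miR-324-3p: cCCACUGCcccaggugcugcugg
miR-3615: uCUCUCGGcuccucgcggcuc
miR-27b-3p: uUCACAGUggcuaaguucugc
miR-1180-3p: uUUCCGGCucgcgugggugugu

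The rises were:
miR-30a-3p: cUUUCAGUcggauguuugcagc
miR-30e-3p: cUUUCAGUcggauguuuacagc
miR-625-3p: gACUAUAGaacuuucccccuca
miR-182-5p: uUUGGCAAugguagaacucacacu
miR-181a-2-3p: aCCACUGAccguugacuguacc
miR-449c-5p: uAGGCAGUguauugcuagcggcugu
miR-28-3p: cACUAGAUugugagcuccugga
miR-30c-2-3p: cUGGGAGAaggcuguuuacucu

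No 2 of the printed falls shared a seed. Among the rises, miR-30a-3p and miR-30e-3p shared the seed UUUCAGU and most other letters, so they may share reads.

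On the TMM scale, 134 of the 626 tested names differed between AA and WT, and falls outnumbered rises. In edgeR's quasi-likelihood test with Benjamini-Hochberg adjustment at 0.05, 39 names (6.23%) were higher and 95 (15.2%) lower with AA than with WT. All 134 had WT and AA libraries that did not overlap, as did 373 of all names (59.6%). Changes of at least 2-fold, a log2 fold change of 1, were seen for 18 of the names that rose and 62 of those that fell. Above 100 CPM, 25 names rose and 58 fell, of 235. The most abundant miRNAs were not among them. miR-92a-3p, the largest single species, had 137933 and 118386 CPM with WT and 155419 and 168277 CPM with AA, a log2 fold change of 0.34 ± 0.15 (SE) that did not pass the test (edgeR adjusted p = 0.152). The next 5, miR-16-5p, miR-10a-5p, miR-19b-3p, miR-20a-5p and miR-25-3p, had log2 fold changes of −0.18, 0.44, 0.30, −0.16 and −0.37, and none passed. The counts leaned on single libraries: 18 rose and 36 fell without AA replicate 2, 24 and 84 without AA replicate 1, and 22 and 66 without WT replicate 1.

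**Figure D1:**
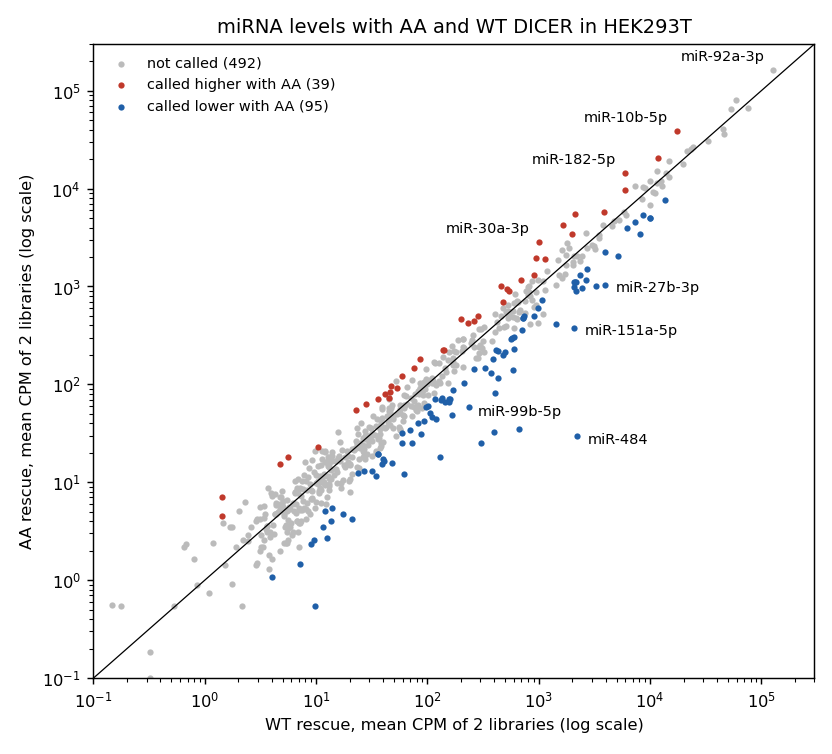
Mean level of each of the 626 tested names with AA against WT DICER in HEK293T, in CPM on 2 log axes; the line marks equal levels, red points are the 39 names called higher and blue points the 95 called lower. miR-484, miR-99b-5p and miR-151a-5p lie far below the line, and the most abundant name, miR-92a-3p, lies near it.

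The counts of rises and falls depended on what the libraries were scaled to. TMM assumes that most names do not move, and on that scale the median log2 fold change over the 626 names was −0.11. Spike-in RNAs, 30 per library, give a scale that does not. The WT libraries held 82.6 and 80.9 miRNA reads per spike-in read, and the AA libraries 58.8 and 44.3. The mean was 81.8 ± 1.21 (SD, n = 2) with WT and 51.6 ± 10.3 with AA, 63.1% of WT, and the 2 groups did not overlap. An exact two-sided permutation test gave p = 0.33, the smallest that 2 against 2 libraries allow. The labels do not say at which step spike-ins were added, so less miRNA per cell, more of the other RNA and fewer cells cannot be told apart in this ratio.

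On the spike-in scale the median was −0.58, with 8 names (1.28%) higher and 190 (30.4%) lower. All 95 names that fell on the TMM scale also fell there, while 8 of the 39 that rose stayed higher: miR-1266-5p, miR-146b-3p, miR-181a-2-3p, miR-182-5p, miR-30a-3p, miR-30e-3p, miR-4511 and miR-625-3p. With spike-in totals in place of size factors, 2 names were higher and 290 lower, with DESeq2 size factors 57 and 82, and with upper-quartile factors 129 and 41. The median moved to −0.83, −0.03 and 0.34 under these 3. The spike-ins themselves ran unevenly: their single shifts put the miRNA change at −1.87 to 0.23 (log2), below 0 for 26 of 30. Tested among themselves by edgeR, 0 of 30 passed and 7 had an unadjusted p under 0.05.

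In all, 30 names were called in the same direction under all 14 fits other than those with another filter on low counts, which included other scalings, DESeq2's test and each library left out in turn. Of these, 29 fell, among them miR-484, miR-99b on both arms, miR-331-3p, let-7e-5p, let-7g-5p, miR-27b-3p, miR-222-3p and miR-103a-3p. miR-30a-3p was the rise, at 0.79 to 1.95 (log2) over the fits.

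miR-484 showed the largest fall. Its precursor starts at the cap of its own transcript and is made without DROSHA, the nuclease that cuts most hairpins out of longer transcripts; the gene lies on chromosome 16, 15643294 to 15643372 (GRCh38, plus strand), in the annotated UTR of NDE1. miR-484 had 2564 and 1832 CPM with WT and 33.7 and 25.1 CPM with AA. Both AA libraries lay far below both WT libraries, a log2 fold change of −6.19 ± 0.26 (SE, edgeR adjusted p = 1.1e-07). On the spike-in scale it was −6.66.

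The other DROSHA-independent miRNAs fell less. miR-320a, the abundant member of the miR-320 family, had 7729 and 12203 CPM with WT and 5172 and 4951 CPM with AA, and miR-320b had 615 and 795 CPM with WT and 339 and 383 CPM with AA. The groups did not overlap for either, with log2 fold changes of −0.98 ± 0.21 and −0.97 ± 0.20 (edgeR adjusted p = 0.00847 and 0.00655). miR-320c and miR-320d fell by 1.14 and 1.47 on the log2 scale. The 3 names miR-320b, c and d share the seed AAAGCUG and most of their letters. Reads may be shared among all 4 miR-320 names, miR-320a included, so their falls are not separate observations. All 5 tested members of the list were lower, against 15.2% of all names, and the list's median was −1.14 (log2) and below 0 under all 6 scalings. With upper-quartile factors 2 of the 5 were called. Without AA replicate 2 the 4 miR-320 names did not pass (edgeR adjusted p = 0.071 to 0.096). The median without 1 library stayed between −1.37 and −0.96.

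miR-451a, whose precursor is cut by AGO2 and not by DICER, was at 28.0 and 24.8 CPM with WT and 24.8 and 22.9 CPM with AA. The libraries did not overlap but differed little, with a log2 fold change of −0.13 ± 0.25 (edgeR adjusted p = 0.766). On the spike-in scale the value was −0.60, which did not pass either.

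A cluster on chromosome 19 held 2 of the largest falls beside a miRNA that was not called. miR-99b, let-7e and miR-125a lie within 51692612 to 51693339 (GRCh38, plus strand), and the hairpins of miR-99b and let-7e lie in an intron of SPACA6. miR-99b belongs to the miR-99/100 family, known to repress MTOR, and let-7e to the let-7 family, which holds down growth genes such as RAS and HMGA2. The 3 hairpins are shown because they share a primary transcript and differ in response; capitals mark the 5p and 3p strands, so that the lower-case letters between them are the loop that DICER removes (RefSeq, GRCh38.p14):
miR-99b hairpin: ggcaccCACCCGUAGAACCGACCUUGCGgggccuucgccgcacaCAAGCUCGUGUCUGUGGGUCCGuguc
let-7e hairpin: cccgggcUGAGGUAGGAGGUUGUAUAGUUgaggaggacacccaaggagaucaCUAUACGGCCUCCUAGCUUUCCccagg
miR-125a hairpin: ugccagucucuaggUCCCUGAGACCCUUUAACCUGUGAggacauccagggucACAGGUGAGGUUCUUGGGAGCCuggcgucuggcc

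miR-99b-5p had 799.5 and 543 CPM with WT and 29.3 and 40.9 CPM with AA. let-7e-5p had 247 and 362 CPM with WT and 31.5 and 18.6 CPM with AA. miR-125a-5p, from the third hairpin, had 897 and 1082 CPM with WT and 1599 and 759 CPM with AA. For the first 2 both AA libraries were below both WT libraries, and for miR-125a-5p the AA libraries lay on either side of WT. The log2 fold changes were −4.29 ± 0.27, −3.55 ± 0.30 and 0.26 ± 0.28 (SE, edgeR adjusted p = 3.7e-06, 3.2e-05 and 0.585). The value for miR-125a-5p turned to −0.44 without AA replicate 1 and rose to 0.76 without AA replicate 2. The span of 4.54 (log2) was the widest of the 10 clusters with at least 3 tested hairpins matched to RefSeq. miR-99a-5p, whose seed ACCCGUA is also that of miR-99b-5p, was at 3067 and 2219 CPM with WT and 3462 and 3500.0 CPM with AA and did not pass (0.40 ± 0.18, edgeR adjusted p = 0.156), but was called higher without WT replicate 1 (edgeR adjusted p = 0.042).

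The other wide clusters likewise held hairpins that fell beside hairpins that were not called. In the miR-23b/27b/24-1 cluster on chromosome 9 (95085208 to 95086088), an intron of C9orf3, miR-27b-3p had 4238 and 3657 CPM with WT and 1089.7 and 1001 CPM with AA and miR-23b-3p had 2369.9 and 1744 CPM with WT and 1308 and 936 CPM with AA. Both fell, by 1.92 ± 0.17 and 0.87 ± 0.21 on the log2 scale (edgeR adjusted p = 4.1e-05 and 0.0144), with miR-23b-3p not called without AA replicate 2 or WT replicate 1 (edgeR adjusted p = 0.156 and 0.099). miR-24-3p, which a second cluster also makes, had 2675 and 2231 CPM with WT and 2116 and 2008 CPM with AA and did not pass (−0.25).

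The paralog on chromosome 19 gave miR-27a-3p, which has the seed of miR-27b-3p, UCACAGU, at 1248 and 953 CPM with WT and 1174 and 1127 CPM with AA. Its log2 fold change was 0.06 ± 0.18 (edgeR adjusted p = 0.864). In all, 3 of 11 members of the miR-23/27/24 clusters fell and 0 rose, against 15.2% and 6.23% of all names, and with upper-quartile factors 1 fell and 1 rose. In the X-linked cluster of miR-106a, miR-18b, miR-19b-2 and miR-92a-2 the span was 1.59, from miR-18b-5p at −1.25 to miR-92a-3p at 0.34, which chromosome 13 also makes. miR-18b-5p was called lower, but not without AA replicate 2 (edgeR adjusted p = 0.054). The span in the CLCN5 cluster on X, with 7 hairpins, was 1.35. There 1 hairpin fell, near the 15.2% of all names: miR-188-5p, at 67.4 CPM and −1.12 (log2). Over all names 15.2% fell, and how often unclustered names would mix in the same way was not counted. Across the 10 clusters, 5 held lower and uncalled hairpins together, 3 held none called, and 0 held both directions. The miR-183/96/182 cluster was not among the 10 and did hold both, as given with the rises.

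Most tested members of the let-7 family were lower with AA. let-7a-5p, its most abundant member, had 6413 and 9903 CPM with WT and 3847 and 3023 CPM with AA, and let-7g-5p, from an intron of WDR82 on chromosome 3, had 309 and 443 CPM with WT and 139.7 and 119 CPM with AA. WT replicate 2 was the higher WT library for both, and no AA library reached WT. The log2 fold changes were −1.25 ± 0.24 and −1.53 ± 0.22 (edgeR adjusted p = 0.00451 and 0.00076). let-7f-5p fell by 0.96, and let-7c-5p was at −0.68 and did not pass (edgeR adjusted p = 0.0689), though it did without AA replicate 1 (edgeR adjusted p = 0.0099). Of 14 tested members, 9 fell and 0 rose, against 15.2% and 6.23% of all names, and the median was −0.99, below 0 under all 6 scalings. The number that fell ran from 4 with upper-quartile factors to 12 with spike-in totals, and was 2 without AA replicate 2. Without AA replicate 2, let-7a-5p and let-7f-5p were not called (edgeR adjusted p = 0.071 and 0.26), nor was let-7f-5p without WT replicate 2 (edgeR adjusted p = 0.123). Members of this family differ by few bases and may share reads.

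**Figure D2:**
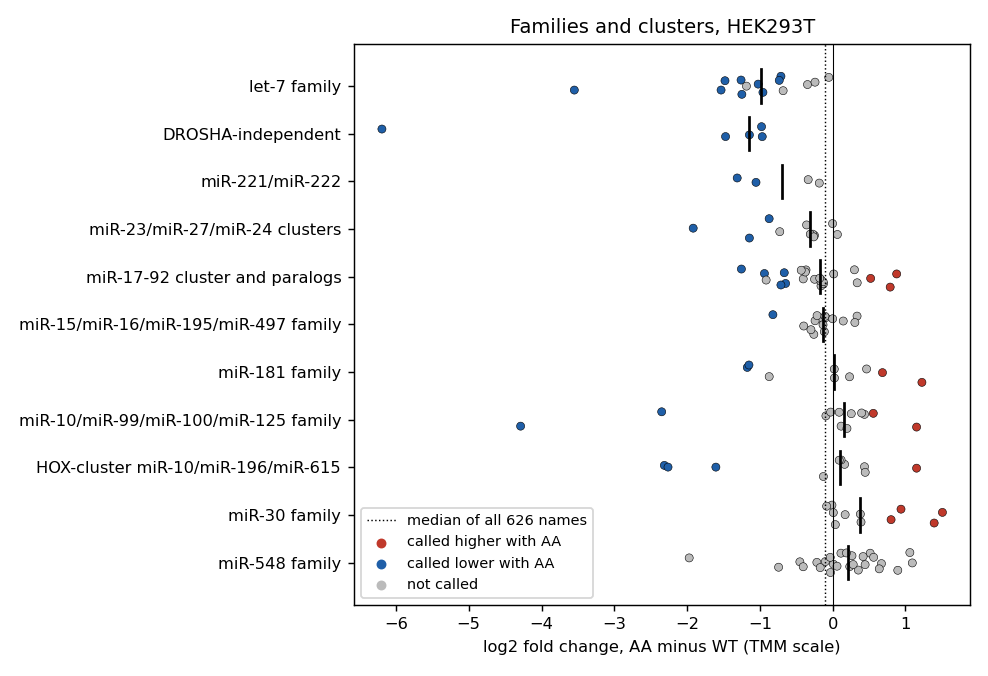
Log2 fold change, AA minus WT on the TMM scale, of each tested member of 11 families or clusters; blue points were called lower, red points higher, grey points not called, the bar is the list's median and the dotted line the median of all 626 names. All 5 DROSHA-independent names are blue and 9 of 14 let-7 names are, while 4 of 11 miR-30 names are red.

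Other families split by member. miR-222-3p, known to repress the cell-cycle inhibitor CDKN1B, had 5234 and 5055 CPM with WT and 2030.4 and 2114 CPM with AA, and its neighbour miR-221-3p, with the same seed GCUACAU, had 5849.7 and 6363 CPM with WT and 5400.2 and 5351 CPM with AA. miR-222 fell on both arms, by 1.31 ± 0.16 and 1.05 ± 0.22 (log2, edgeR adjusted p = 0.00034 and 0.00655), and miR-221-3p was not called (−0.18, edgeR adjusted p = 0.454). The pair thus counted 2 lower of 4 names, against 15.2% of all names, and 1 with upper-quartile factors.

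miR-181 showed both directions within one seed, ACAUUCA, and was the only one of 59 seed families that did so on the TMM scale. Its mature strands differ after the seed:
miR-181a-5p: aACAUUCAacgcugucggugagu
miR-181b-5p: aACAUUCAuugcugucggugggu
miR-181c-5p: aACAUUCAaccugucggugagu
miR-181d-5p: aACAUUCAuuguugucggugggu
miR-181a-5p, made from 2 loci, had 5582 and 6388 CPM with WT and 8876 and 10354 CPM with AA. miR-181c-5p, from a further locus in an intron of NANOS3, had 331 and 328 CPM with WT and 157 and 134 CPM with AA. Both AA libraries lay above WT for the first and below WT for the second. miR-181a-5p rose by 0.68 ± 0.17, while miR-181c-5p and miR-181d-5p fell by 1.17 ± 0.26 and 1.15 ± 0.23 (log2, edgeR adjusted p = 0.0145, 0.00928 and 0.006). miR-181b-5p was at 0.23 and not called. On the spike-in scale miR-181a-5p was at 0.19 and did not pass, with spike-in totals it was at −0.05, and none of the 3 passed without AA replicate 2 (edgeR adjusted p = 0.074 to 0.098), nor miR-181a-5p without WT replicate 1 (edgeR adjusted p = 0.067).

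miR-103a-3p and miR-107, which lie in introns of the pantothenate kinase genes and share the seed GCAGCAU, both fell. miR-103a-3p had 10373 and 9769.6 CPM with WT and 5181 and 4734 CPM with AA, and miR-107 had 2225 and 2123 CPM with WT and 1066 and 1166 CPM with AA. The log2 fold changes were −1.02 ± 0.16 and −0.96 ± 0.18 (edgeR adjusted p = 0.0013 and 0.0035), with no overlap between the groups. Both names may share reads, so their falls may not be separate observations. Among 23 tested names of the miR-17-92 cluster and its paralogs, 5 fell and 3 rose: miR-106b-5p and miR-18a-5p were lower by 0.67 and 0.65 and miR-92b-3p was higher by 0.79 (log2), the first 2 not called without AA replicate 2, miR-18a-5p also not without WT replicate 1, and miR-92b-3p not without WT replicate 2. The shares over all names were 15.2% and 6.23%, and without AA replicate 2 the list had 0 lower and 1 higher. The miR-26 and miR-101 list (7 names), the miR-148 and miR-152 family (6) and the transposon-derived miR-548 family (26) had 0 names called by edgeR at the adjusted threshold and 0 by DESeq2, with 1, 0 and 1 at an unadjusted edgeR p under 0.05. With upper-quartile factors 1, 2 and 3 of them were higher.

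Further falls came from hairpins on their own. miR-615-3p, from the HOXC introns on chromosome 12 (54033950 to 54034045), had 468 and 338 CPM with WT and 82.3 and 79.6 CPM with AA. Its 5p arm fell too, with 23.7 and 18.7 CPM with WT and 4.82 and 3.58 CPM with AA. Neither arm had an AA library near WT, and the log2 fold changes were −2.31 ± 0.22 and −2.26 ± 0.38 (edgeR adjusted p = 6.1e-05 and 0.00227).

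miR-3615, on chromosome 17 (74748613 to 74748699), had 261 and 209.6 CPM with WT and 50.8 and 68.1 CPM with AA. miR-1180-3p, from an intron of B9D1 on chromosome 17 (19344506 to 19344574), had 480.0 and 388 CPM with WT and 118 and 114 CPM with AA. They fell by 2.00 ± 0.23 and 1.90 ± 0.19 (log2, edgeR adjusted p = 0.0002 and 9.1e-05). miR-151a-5p had 2258 and 1894 CPM with WT and 386 and 365 CPM with AA and fell by 2.47 ± 0.18 (edgeR adjusted p = 7.9e-06). miR-151b, a near copy that may share its reads, fell by 2.73. Among mirtrons, hairpins made by splicing, 1 of 5 tested was called, near the 15.2% of all names that fell: miR-877-5p, lower by 1.02 ± 0.24 (edgeR adjusted p = 0.0115), and not called without AA replicate 2 or WT replicate 1.

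Above 100 CPM the largest rises were smaller than the largest falls. miR-30a-3p, the less used strand of a hairpin on chromosome 6 (71403551 to 71403621, minus strand), had 786 and 1217 CPM with WT and 2836 and 2863 CPM with AA. miR-30e-3p had 1658 and 2559.9 CPM with WT and 5449 and 5637 CPM with AA. The 2 AA libraries were close to each other and above both WT libraries, and WT replicate 1 was the lowest library for both. The log2 fold changes were 1.51 ± 0.21 and 1.39 ± 0.21 (edgeR adjusted p = 0.00076 and 0.00102). Both names are near copies that may share reads, so their rises may not be separate observations.

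The main strands of the same hairpins moved less. miR-30a-5p had 10047 and 13665 CPM with WT and 21553 and 19793 CPM with AA and rose by 0.80 ± 0.18 (log2, edgeR adjusted p = 0.0105), and was not called without WT replicate 1 (edgeR adjusted p = 0.055). miR-30e-5p had 14652 and 14844 CPM with WT and 20892 and 17497 CPM with AA and did not pass (0.38, edgeR adjusted p = 0.12). Of the 11 miR-30 names, from hairpins known for repressing epithelial-mesenchymal transition genes, 4 rose and 0 fell, against 6.23% and 15.2% of all names, and 2 rose without WT replicate 1. Their median of 0.38 turned to −0.09 on the spike-in scale and −0.33 with spike-in totals, with 2 and 1 of them still higher.

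miR-625-3p, from an intron of FUT8 on chromosome 14 (65471102 to 65471186), had 1359 and 1961 CPM with WT and 4014 and 4536 CPM with AA. miR-182-5p, from a cluster with miR-183 and miR-96 that is typical of sensory cells, had 5076 and 6817 CPM with WT and 15061 and 13852 CPM with AA. Both rose, by 1.36 ± 0.20 and 1.28 ± 0.18 (log2, edgeR adjusted p = 0.00091 and 0.00076), with all AA libraries above WT. miR-183-5p of the same cluster had 697 and 443 CPM with WT and 311 and 286 CPM with AA and fell by 0.93 ± 0.22 (log2, edgeR adjusted p = 0.0119), a call lost without AA replicate 2 or WT replicate 1.

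miR-10b-5p, encoded in the HOXD cluster, had 14876 and 20239.8 CPM with WT and 38168 and 39889 CPM with AA. It was the most abundant miRNA that rose, by 1.15 ± 0.18 (log2, edgeR adjusted p = 0.0013), and on the spike-in scale it was at 0.67 and did not pass (adjusted p = 0.061, edgeR). miR-31-3p, miR-181a-2-3p, miR-449c-5p, miR-28-3p and miR-30c-2-3p rose by 1.15, 1.23, 1.07, 1.05 and 0.94. miR-28-3p had 635 and 1256 CPM with WT and 2484 and 1419 CPM with AA, the widest spread of these, and was not called without AA replicate 1 or WT replicate 1 (edgeR adjusted p = 0.24 and 0.209). miR-30c-2-3p was not called without WT replicate 1 or AA replicate 2 (edgeR adjusted p = 0.097 and 0.092).

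**Figure D3:**
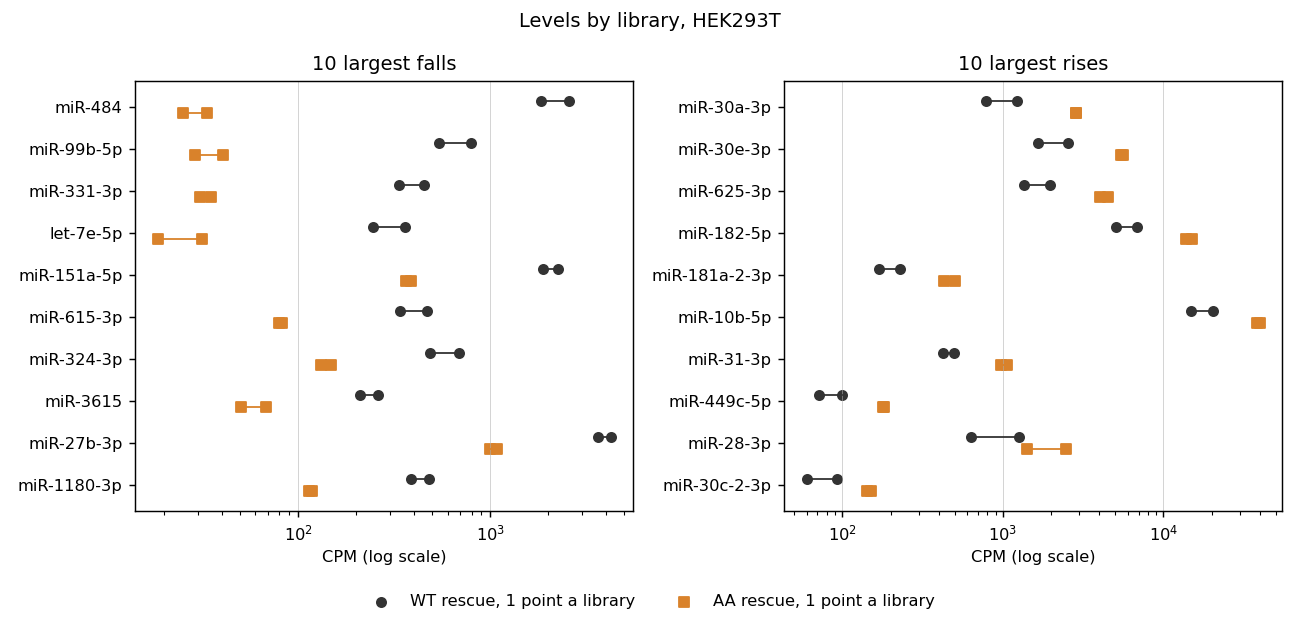
Level of the 10 largest falls (left) and 10 largest rises (right) above 100 CPM in each library, in CPM on a log axis; circles are the 2 WT libraries, squares the 2 AA libraries, and the line joins libraries of a group. The groups lie apart for all 20, as the choice of names required, most for miR-484 and least for miR-28-3p.

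The 2 strands of a hairpin come from the same DICER cut, and their changes were compared. Of 182 hairpins with both arms tested, both arms fell in 16, both rose in 1 (miR-30a), and 0 had arms called in opposite directions. Only the one arm fell in 27 and only the one arm rose in 19. Over these hairpins the log2 fold changes of the arms had Pearson's r = 0.46 and Spearman's rho = 0.49, as a description, since arms share libraries and scaling. Falls were as common among 5p names (41 of 256) as among 3p names (40 of 252), and rises were 16 and 17.

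Arm use itself was tested as the ratio of 3p to 5p reads, which needs no scaling between libraries. The 3p share rose in 10 of 180 hairpins (5.56%) and fell in 9 (5%). miR-331 changed most: its 3p arm, reported to repress ERBB2, held 85.7% and 80.8% with WT and 30.2% and 28.7% with AA of the hairpin's reads. miR-331-3p itself had 452 and 336 CPM with WT and 35.2 and 30.8 CPM with AA, while miR-331-5p had 75.5 and 79.8 CPM with WT and 81.5 and 76.7 CPM with AA. The 3p level fell by 3.56 ± 0.31 (log2, edgeR adjusted p = 3.2e-05), the 5p value was 0.03 ± 0.23, and the shift in arm ratio was −3.58 ± 0.32 (log2, SE, edgeR adjusted p = 7.3e-08).

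miR-324 changed from a balance of arms to a 5p majority. This hairpin is known to be cut by DICER at more than one position, with a different arm kept after each. Its sequence is shown with the strands in capitals (chromosome 17, 7223297 to 7223379, minus strand, RefSeq GRCh38.p14):
miR-324 hairpin: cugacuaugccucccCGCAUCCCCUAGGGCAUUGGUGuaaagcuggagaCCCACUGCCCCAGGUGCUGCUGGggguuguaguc
Its 3p share was 50.9% and 49.4% with WT and 17.8% and 22.5% with AA. miR-324-3p had 689 and 488 CPM with WT and 132 and 148 CPM with AA, and miR-324-5p had 665 and 501 CPM with WT and 609 and 512 CPM with AA. The groups were apart for the 3p strand and overlapped for the 5p strand, with log2 fold changes of −2.08 ± 0.21 (edgeR adjusted p = 9.1e-05) and −0.05 ± 0.19 (0.897, not called). The shift in arm ratio was −2.01 ± 0.26 (log2, SE, edgeR adjusted p = 2.3e-05).

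The 3p share also fell for miR-10b, from 0.688% and 0.564% to 0.310% and 0.283%, through the rise of its 5p arm. It fell for miR-196a and miR-1271 by 1.79 and 1.11 (log2 of the ratio), calls that did not hold without WT replicate 1 (edgeR adjusted p = 0.104 and 0.324) or AA replicate 1 (0.062 and 0.53), nor, for miR-1271, without WT replicate 2 (edgeR adjusted p = 0.121).

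Toward 3p, miR-99b moved most among hairpins with both arms above 20 CPM. Its 3p share was 7.16% and 10.2% with WT and 28.2% and 24.0% with AA, since miR-99b-5p fell further than miR-99b-3p, which had 61.6 and 61.7 CPM with WT and 11.5 and 12.9 CPM with AA. The shift was 1.94 ± 0.36 (log2, SE, edgeR adjusted p = 0.00106). For miR-582 the share was 47.5% and 52.3% with WT and 70.5% and 75.4% with AA, and for miR-625 it was 67.9% and 74.4% with WT and 84.2% and 87.5% with AA. For miR-28 it was 53.2% and 70.6% with WT and 80.4% and 78.1% with AA, and for miR-31 it was 7.49% and 7.03% with WT and 15.3% and 14.5% with AA. These shifts were 1.43, 1.29, 1.22 and 1.16 (log2 of the ratio, edgeR adjusted p = 0.00106, 0.00106, 0.0125 and 0.00106), and the AA and WT libraries were apart for all 4. That of miR-28 was not called without WT replicate 1 (edgeR adjusted p = 0.138). Without WT replicate 1, 6 hairpins shifted toward 3p and 4 toward 5p.

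**Figure D4:**
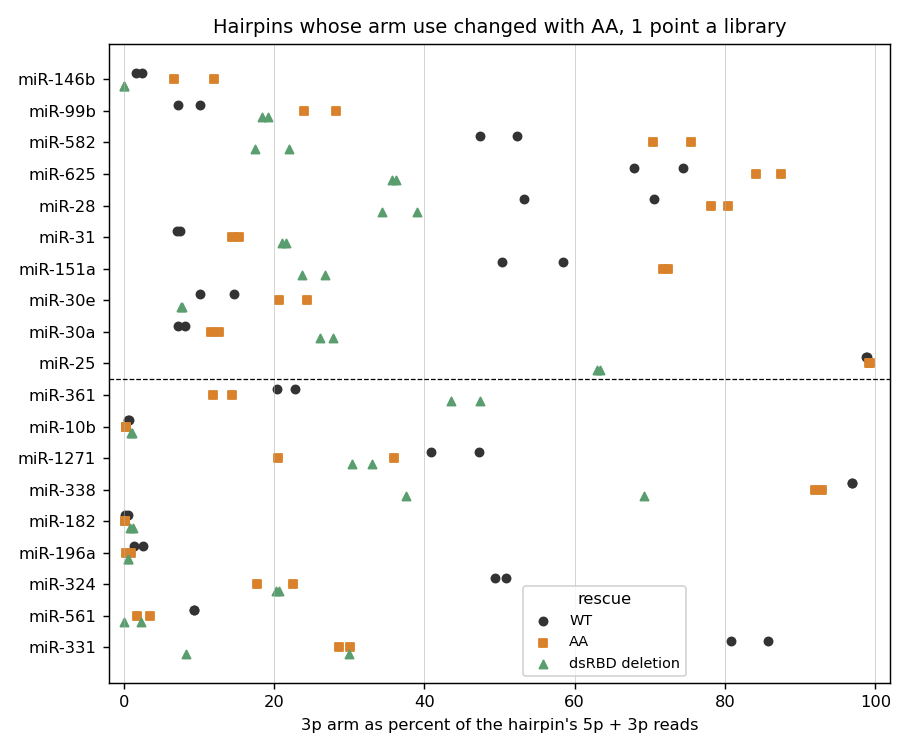
Share of the 3p arm in the reads of each hairpin, in percent, for the 19 hairpins whose arm use changed with AA, with 1 point for each of the 6 HEK293T libraries; hairpins above the dashed line gained 3p share and those below lost it. Circles are WT, squares AA and triangles the dsRBD deletion; miR-331 lies above 80% with WT and near 30% with AA.

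The bases at the DICER cut were compared with the change of each hairpin, for 221 hairpins with both strands in RefSeq, taking the more abundant arm. Of these 46 fell, 15 rose, and the median was −0.13 (log2). By the last base of the 5p strand, 28.4% of hairpins ending in U fell (21 of 74), 23.4% of those ending in G (15 of 64), 15.9% of those ending in A (7 of 44) and 7.69% of those ending in C (3 of 39). The medians were −0.28, −0.13, −0.19 and 0.05. By the second base of the 3p strand, 30% fell with U (18 of 60), against 16.7% with C, 17.7% with A and 18.2% with G. The other 2 positions compared spread less: 15% to 24.5% fell by the first base of the 3p strand and 15.4% to 23.4% by the third. These shares are descriptions of annotated ends, with no test, and hairpins of a family share their bases.

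The form without the dsRBD gave another order of miRNAs, and the AA form was compared with it directly in the same fit. These 2 forms differed for more names than AA and WT did: on the TMM scale 226 (36.1%) were higher with AA and 231 (36.9%) lower. The deletion libraries held 29.1 and 27.2 miRNA reads per spike-in read, against 58.8 and 44.3 with AA. The spike-in scale therefore moves the AA minus deletion values up, and on it 99 names were lower. The near-even split thus belongs to the TMM scale. The names given here had at least 100 CPM in the mean over the WT and AA libraries. Names abundant with the deletion only could not enter this choice. miR-1269b, the largest difference above 100 CPM, had 399 and 439 CPM with AA and 1.77 and 4.59 CPM with the deletion (2 and 6 reads), against 199.8 and 266 CPM with WT. miR-93-5p, of the miR-106b/93/25 cluster, had 17329 and 18210.3 CPM with AA and 246 and 219.6 CPM with the deletion. It was at 18024.6 and 21816 CPM with WT, so AA and WT overlapped and the deletion lay far below. The AA minus deletion differences were 6.97 ± 0.36 and 6.25 ± 0.21 (log2, edgeR adjusted p = 5.5e-08 and 9.9e-09). Next came miR-375, an endocrine miRNA, and miR-1180-3p, at 6.23 ± 0.31 and 5.79 ± 0.36, the latter from 2 and 3 reads with the deletion, so that its size is rough. Against WT the same names were at 0.85, −0.16, −0.45 and −1.90.

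In the other direction, miR-193a-3p had 2423 and 2259 CPM with AA, 19589 and 20573 CPM with the deletion, and 1903 and 1331 CPM with WT. It was thus higher with the deletion than in any WT or AA library, and AA minus deletion was −3.10 ± 0.21 (edgeR adjusted p = 3e-07). miR-1268a, miR-1268b and miR-33b-5p were at −3.58, −3.47 and −3.0 for the same difference, the first 2 being near copies. miR-484 was lower with AA than with the deletion, which had 96.2 and 100.3 CPM, by 1.71 ± 0.25 on the log2 scale (edgeR adjusted p = 9.9e-05), and by 0.72 on the spike-in scale (0.0487). let-7g-5p had 678 and 571 CPM with the deletion and was lower with AA by 2.26 ± 0.22 (edgeR adjusted p = 6.2e-06). For miR-615-3p the deletion gave 2.65 and 1.53 CPM (3 and 2 reads), below both AA libraries, and for miR-331-3p 0.883 and 6.89 CPM (1 and 9 reads), where 3 reads are 2.65 and 2.30 CPM.

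HCT116, a human colorectal carcinoma line, was rescued with the same forms, and the AA effects of the lines were tested against each other over all 12 libraries. Of 844 names tested, the effect was lower in HEK293T for 25 (2.96%) and higher for 8 (0.948%). Several of the largest HEK293T falls were thus larger than in HCT116. In this fit let-7e-5p went from 218 and 376 CPM with WT to 32.9 and 19.4 CPM with AA in HEK293T and from 1827 and 1741 CPM with WT to 989 and 968 CPM with AA in HCT116. The changes were −3.45 in HEK293T and −0.87 in HCT116 (log2) and the difference −2.58 ± 0.35 (SE, edgeR adjusted p = 9.7e-05). miR-99b-5p went from 2627 and 2308 CPM with WT to 603 and 598 CPM with AA in HCT116, and its changes were −4.15 in HEK293T and −2.04 in HCT116 (log2), a difference of −2.11 ± 0.29 (SE, edgeR adjusted p = 9.7e-05). miR-484 went from 1349 and 1078 CPM with WT to 73.0 and 72.1 CPM with AA in HCT116, with changes of −6.05 in HEK293T and −4.06 in HCT116 (log2) and a difference of −1.99 ± 0.29 (SE, edgeR adjusted p = 0.00015). The fourth was miR-99b-3p, with a difference of −1.90 ± 0.37 (SE, edgeR adjusted p = 0.00394).

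In the other direction, the test of the difference put the AA effect higher in HEK293T than in HCT116 for 6 names above 100 CPM. That level is the mean over the 8 WT and AA libraries of both lines. miR-182-5p went from 4552 and 4671 CPM with WT to 4327 and 4636 CPM with AA in HCT116, and the difference of the AA effects was 1.43 ± 0.27 (SE, edgeR adjusted p = 0.00313). miR-30a-3p went from 288 and 296 CPM with WT to 321 and 350.3 CPM with AA in HCT116, a difference of 1.40 ± 0.30 (SE, edgeR adjusted p = 0.00679). miR-625-3p and miR-145-5p differed by 1.45 ± 0.29 (SE, edgeR adjusted p = 0.00527) and 1.48 ± 0.34 (SE, edgeR adjusted p = 0.0108). miR-145-5p was at 8.46 to 29.05 CPM in the HEK293T libraries and 832 to 979 CPM in HCT116, so it passed 100 CPM through HCT116 only. Above 100 CPM on the same mean, the effects of the lines had Pearson's r = 0.62 and Spearman's rho = 0.51 over 273 names. Over all 844 names Pearson's r was 0.27. These are descriptions over names that share libraries.

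**Figure D5:**
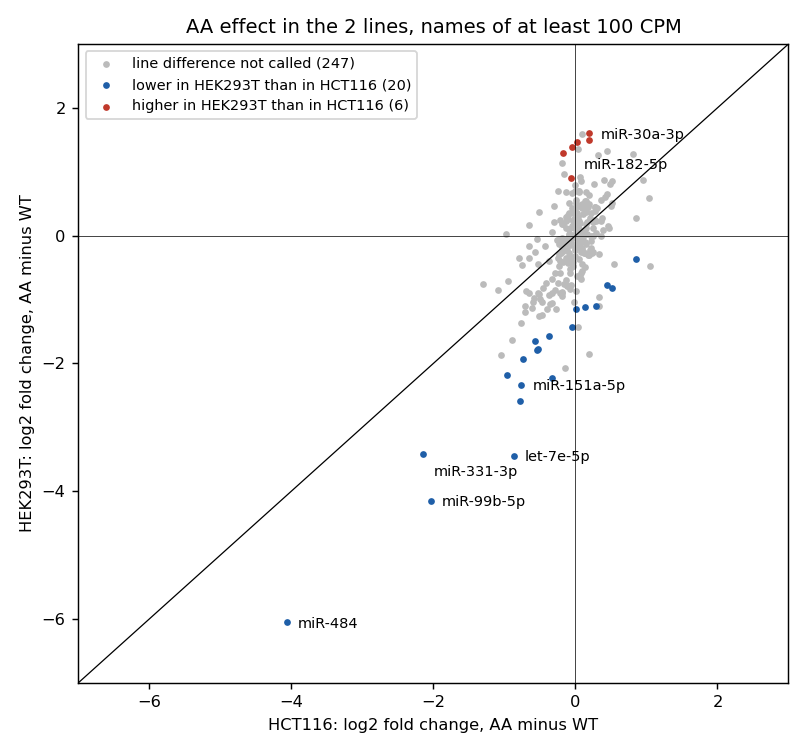
Log2 fold change of AA against WT in HEK293T (vertical) and HCT116 (horizontal), with the line of equal effects. Shown are the 273 names with a mean of at least 100 CPM over the WT and AA libraries of both lines. Blue points had a lower effect in HEK293T (20) and red points a higher one (6); miR-484, miR-99b-5p and miR-331-3p fell in both lines and further in HEK293T.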

How the data were processed

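Small RNA of 6 HEK293T libraries (WT, AA and dsRBD deletion rescue, 2 each) was analysed, with 6 HCT116 libraries for the difference between the lines. Each deposited table holds the raw counts of 1 library, by miRNA name and by spike-in. The submitters' processing notes name cutadapt, BWA and bedtools and the builds hg38 and mm10; their versions and roles, and how reads matching several names were handled, are not given in the sources used. Near-identical names may therefore share reads (miR-199a-3p and miR-199b-3p, and miR-365a-3p and miR-365b-3p, have the same RefSeq sequence). Depth ran from 1059778 to 3552613 miRNA reads in HEK293T, and spike-in reads, 1.20% to 3.54% of miRNA plus spike-in reads, stayed out of library sizes.

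edgeR 4.0.16 (R 4.3.3) tested the names kept by filterByExpr (minimum count 10), TMM-scaled, by quasi-likelihood with all 6 libraries in the fit and 3 residual degrees of freedom, two-sided, Benjamini-Hochberg at 0.05; SE is the log2 fold change divided by the square root of F. The 985 names not tested held at most 0.085% of a library's reads. For arm use, the interaction of arm and group was fitted with a term per library, on hairpins whose arms each had 10 reads or more in 2 libraries. Spike-in scaling used DESeq2 1.42.0 size factors. Both models were also run on simulated counts with known changes, as many up as down, drawn with the spread that edgeR estimated. Such counts cannot test the choice of scaling. Replicate numbers were not used as pairs, since the labels do not say that they pair libraries. The replicate deviations of WT and AA correlated at −0.0675 across names, which cannot decide whether they do. Coordinates and hosts come from RefSeq and GENCODE 29, both GRCh38, and clusters join hairpins within 10 kb.

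By rule, the text names the 10 largest called rises and falls of at least 100 CPM. Their WT and AA libraries had to lie apart to be chosen. Added to them are the 6 most abundant, miR-320a, miR-324, miR-331, miR-451a and miR-99b, and up to 4 abundant members of a list. Hairpins with the largest arm shifts (at least 20 CPM per arm) and partner arms are also named. So are the 4 widest clusters and the 4 largest differences each way for the other contrasts. Outside this rule, miR-103a-3p, miR-107, miR-106b-5p, miR-18a-5p, miR-92b-3p, miR-125a-5p, miR-151b, miR-181c-5p, miR-181d-5p and miR-320d were added after their values were seen. The members and lists were chosen with earlier results of these data known. Alternatives were other scalings, DESeq2's test, other filters, other sets of libraries, a replicate block and each library left out.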

Additional observations from a re-analysis of the deposited data

Results flagged for a closer look

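The AA effect differed between HEK293T and HCT116, by the edgeR interaction over all 12 libraries, for these names of the text. It was lower in HEK293T (log2 difference, HEK293T minus HCT116) for let-7e-5p at −2.58, miR-99b-5p at −2.11, miR-484 at −1.99, miR-99b-3p at −1.90 and miR-151a-5p at −1.58. It was also lower for let-7g-5p at −1.38, miR-331-3p at −1.28, miR-27b-3p at −1.25, miR-1180-3p at −1.24, miR-615-3p at −1.21 and miR-324-3p at −1.20. It was higher for miR-145-5p at 1.48, miR-625-3p at 1.45, miR-182-5p at 1.43, miR-30a-3p at 1.40, miR-30e-3p at 1.30 and miR-30a-5p at 0.96. All 11 of the first group had a negative change in both lines, from −0.05 (let-7g-5p) to −4.06 (miR-484) in HCT116. The 6 of the second group rose in HEK293T by 0.90 to 1.60 and ran from −0.18 to 0.20 in HCT116, where none passed the test.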

How the results depend on the processing

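Of 69 named miRNAs, 49 were called, and among these no call reversed except miR-181a-5p, at −0.051 with spike-in totals. Over all 134 called names, 7 had the opposite sign with spike-in totals. With WT and AA compared, the number higher was 129 with upper-quartile factors, 8 with spike-in scaling, 2 with spike-in totals, 23 with no filter on low counts and 18 to 35 with a library left out; the number lower was 41, 190 and 290 under the first 3 and 36 to 101 with a library left out. Hairpins gaining 3p share ran from 6 to 15 and losing it from 4 to 8 with a library left out. Names lower with AA than with the deletion were 99 with spike-in scaling, and names with a lower AA effect in HEK293T than in HCT116 were 14 with spike-in scaling and 71 with library totals. Of the 134 called names, 53 kept their call and direction without AA replicate 2, and 81 without WT replicate 1. With a replicate block, 47 rose and 108 fell, 132 of the 134 kept their call, and no named call was lost; the numbers are not known to pair libraries.

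Names that were not called changed sign as follows, in log2 fold change; the cause was not tested. With spike-in scaling and spike-in totals the values were −0.15 and −0.40 for miR-92a-3p, −0.041 and −0.28 for miR-10a-5p, −0.17 and −0.41 for miR-19b-3p, −0.44 and −0.69 for miR-331-5p, −0.41 and −0.66 for miR-27a-3p, −0.088 and −0.33 for miR-30e-5p, −0.25 and −0.49 for miR-181b-5p, −0.084 and −0.34 for miR-99a-5p and −0.17 and −0.41 for miR-125a-5p. miR-193a-3p was −0.19 with spike-in totals. With upper-quartile factors they were 0.27 for miR-16-5p, 0.29 for miR-20a-5p, 0.084 for miR-25-3p, 0.41 for miR-324-5p, 0.32 for miR-451a, 0.21 for miR-24-3p, 0.27 for miR-221-3p and 0.29 for miR-93-5p. miR-324-5p was 0.0300 with DESeq2 size factors, 0.0326 at a mean of 50 CPM, 0.0299 by DESeq2's test, 0.064 with WT and AA only and 0.081 with all 12 libraries. miR-331-5p was −0.027 with library totals and −0.087 with no filter, and miR-27a-3p was −0.049 with no filter. With a library left out the ranges were −0.43 to 0.087 for miR-20a-5p, −0.34 to 0.17 for miR-324-5p, −0.074 to 0.13 for miR-331-5p, −0.22 to 0.28 for miR-27a-3p and −0.44 to 0.76 for miR-125a-5p. Depth limits names near 3 reads, 0.877 to 2.15 CPM in these libraries.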
